A study of Mus musculus with 23 samples.

Results

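Cocaine was compared with saline in the nucleus accumbens of mice that carry 1 mutated copy of Foxp2, over all genes that the arrays detected. The comparison takes the 11 arrays labelled as heterozygous out of 23 in the series, 6 after cocaine and 5 after saline. These animals were C57BL6 mice of genotype S321X/+, in which 1 copy of Foxp2 has a premature stop codon. They were injected once into the peritoneum with saline or with 15 mg/kg cocaine, and the tissue was punched out 1 h later. Each array carried the RNA of 1 animal, of both sexes, and no age is given in the labels. The other 12 arrays are of wild-type littermates given the same injections, and they enter here to estimate the spread and to test whether the cocaine response differed between genotypes.

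Cocaine blocks the reuptake of dopamine, which in the accumbens acts on 2 classes of spiny projection neuron: those with the D1 receptor, coupled to cAMP synthesis, and those with the D2 receptor, which lowers it. Dopamine and glutamate together drive the MAP kinase and cAMP pathways, and these switch on immediate-early genes such as Fos, Egr2 and Npas4, whose products then change the transcription of other genes. Foxp2 is a forkhead transcription factor of the spiny neurons that mostly represses its targets and has been linked to the wiring of striatal circuits.

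Between 16102 and 17933 of the probes were detected on each heterozygous array, and pairs of these arrays correlated with r between 0.967 and 0.986. Foxp2 RNA in heterozygotes after saline was 65.7%, 68.2% and 71.5% of wild type by its 3 probes (exact permutation p = 0.00216, 0.00866 and 0.00216, two-sided, 5 against 6 arrays). After cocaine it was 61.0%, 61.6% and 69.2% of wild type (exact p = 0.115, 0.126 and 0.188). Of the 9 defining markers of striatal projection neurons with a probe, 8 were detected on all 11 arrays, among them Ppp1r1b, Drd1 and Penk, and Adcy5 was detected on 0. All 4 astrocyte, 4 oligodendrocyte and 4 microglia markers with a probe were detected on all 11 arrays. Of the choroid plexus markers with a probe, Kl was detected on all 11 arrays, Ttr on 2 and Folr1 on 0.

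A set of 3 cocaine arrays, numbered 9, 16 and 19, stood apart from the others. On the first principal component of all 23 arrays, which holds 15.7% of the variance, they lay between 27.3 and 31.7, and the next array, of a wild-type mouse given cocaine, lay at 18.8. A score of cell type markers was taken as the mean log2 deviation of the markers from their mean over all arrays. For the 4 measured markers of excitatory cortical neurons (Slc17a7, Neurod2, Neurod6 and Tbr1) it was 1.36, 1.34 and 1.13 on these arrays and between -0.15 and 0.39 on the other cocaine arrays. After saline it was between -0.62 and 0.03 on 4 arrays and -2.12 on array 14. The striatal projection neuron score used Ppp1r1b, Pde10a, Rgs9, Drd1, Drd2, Penk, Tac1 and Pdyn. It was -0.60, -0.78 and -0.62 on arrays 9, 16 and 19, between -0.16 and 0.00 on the other cocaine arrays and between 0.02 and 0.31 after saline. In a punch of whole tissue, fewer cells of a type and less RNA per cell cannot be told apart. Differences of called genes described below are therefore given with and without arrays 9, 16 and 19, except for genes undetected in a whole group, for which a bound is given.

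At 1 h after cocaine, 10 of 22 measured immediate-early transcription factors, 7 of 24 effectors of neuronal activity and 9 of 22 markers of excitatory cortical neurons were called higher in heterozygotes, against 1.95% of all genes. Against 0.73% of all genes, 5 of 30 markers of striatal projection neurons, Drd1 and Drd2 among them, were called lower. Without arrays 9, 16 and 19, 0 of the excitatory and 0 of the striatal members passed in limma, and the median difference went from 0.51 to 0.27 and from -0.46 to -0.15. These arrays had the highest excitatory and lowest striatal scores, so a smaller size of both medians was built in. That fit has fewer cocaine arrays, and 1 gene of 10138 passed in it. In that fit 1 of the immediate-early factors and 0 of the effectors passed. Their medians were 0.44 and 0.31, against 0.45 and 0.34 with all arrays. In a fit of the 11 heterozygous arrays alone, wild-type arrays did not enter the spread. There 4 immediate-early factors, 4 effectors, 1 excitatory marker and 0 striatal markers passed in limma. Of 10138 genes tested, 272 (2.68%) passed an adjusted p of 0.05 in limma. Of these, 198 were higher after cocaine (1.95%) and 74 were lower (0.73%), and 57 differed by more than 1 log2 unit, of which 55 were higher. Over all genes the median difference was -0.01, and among called genes the median size of the difference was 0.68. In 107 of the 198 higher genes every cocaine array lay above every saline array, against 155 (1.53%) of all genes, and in 35 of the 74 lower genes every cocaine array lay below, against 84 (0.829%) of all genes.

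The count of calls moved with single arrays. It was 67 without saline array 14, 95 without saline array 18, and 91, 97 and 121 without cocaine array 9, 16 or 19, and it was 521 without cocaine array 11. Without arrays 9, 16 and 19 together, 1 gene passed, Egr2, with 636 genes at an unadjusted p under 0.05 against 1676 with them. The differences themselves held their direction there in all 272 called genes, and 254 kept at least 0.5 times their size, with a median of 0.73 of the full value. With the excitatory score in the model 271 of 272 held their direction and 140 at least 0.5 times their size, and with the striatal score 267 and 108. Of all 272 called genes, 62 passed in each of the 11 fits that left out 1 array. Of the 58 called genes named by rule here, most of them for a large difference or a small p, 27 did.

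Of 22 measured immediate-early transcription factors, 10 rose and 0 fell, with a median log2 difference of 0.45 against -0.01 over all genes. Those that rose were Egr2, Fos, Npas4, Egr1, Fosl2, Egr4, Csrnp1, Bhlhe40, Cebpb and Nr4a2. The mean of the list deviated from its average over the 11 arrays by 0.14 to 0.31 log2 units on the cocaine arrays and by -0.43 to -0.08 on the saline arrays, so the groups did not overlap. By the same measure the effector, MAP kinase feedback, striatal, D2, neuropeptide, vesicle fusion and ribosomal lists did not overlap either. Without arrays 9, 16 and 19 the median of the immediate-early list was 0.44, and 1 member passed in limma. With the excitatory score in the model the median was 0.27, and 0 members passed. Promoter sequences of Egr2, Fos, Npas4 and Egr4, called members of this group, are shown because they hold sites that the cAMP and MAP kinase pathways are known to act on. They are the 250 bases before a transcription start, from RefSeq on GRCm38.p6, with matches to the CRE core (TGACG, part of the site of CREB) and to the CArG box (the site of serum response factor) in capitals, on either strand.
Egr2: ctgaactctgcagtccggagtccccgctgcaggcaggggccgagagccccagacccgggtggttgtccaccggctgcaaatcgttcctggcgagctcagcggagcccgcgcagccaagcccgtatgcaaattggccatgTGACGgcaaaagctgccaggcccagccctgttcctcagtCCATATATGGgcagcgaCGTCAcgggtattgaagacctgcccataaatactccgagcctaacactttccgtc
Fos: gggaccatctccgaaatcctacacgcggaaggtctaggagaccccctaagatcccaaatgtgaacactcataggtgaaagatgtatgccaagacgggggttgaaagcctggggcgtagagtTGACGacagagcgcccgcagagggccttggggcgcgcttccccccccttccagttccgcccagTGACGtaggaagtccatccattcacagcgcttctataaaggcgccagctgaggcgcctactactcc
Npas4: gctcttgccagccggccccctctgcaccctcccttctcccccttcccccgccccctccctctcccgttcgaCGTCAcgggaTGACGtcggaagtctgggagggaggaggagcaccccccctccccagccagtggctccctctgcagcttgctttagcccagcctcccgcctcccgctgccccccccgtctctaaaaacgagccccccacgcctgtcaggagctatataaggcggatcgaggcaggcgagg
Egr4: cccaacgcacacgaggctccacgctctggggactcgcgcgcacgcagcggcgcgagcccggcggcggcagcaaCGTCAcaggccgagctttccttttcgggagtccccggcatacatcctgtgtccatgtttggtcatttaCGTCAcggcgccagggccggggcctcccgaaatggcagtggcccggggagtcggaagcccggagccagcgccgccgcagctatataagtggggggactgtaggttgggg
They lie at chr10:67537619-67537868, plus strand (Egr2), chr12:85473640-85473889, plus strand (Fos), chr19:4989972-4990221, minus strand (Npas4) and chr6:85513590-85513839, minus strand (Egr4). Of the 5 starts listed for Egr2, that with the most matches is shown. In it the CArG box begins 72 bases before the start, beside a CRE core 55 bases before it, and 4 of its 5 listed windows hold a CArG box. Fos holds CRE cores 129 and 66 bases before its start, Npas4 at 179 and 169, and Egr4 at 177 and 109.

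Of the 20 called genes of the 3 activity lists described here, 14 have a listed window. Of these 14, 11 have at least 1 window with a CRE core, against 2553 of 8224 tested genes with a window. Counted by window, a CRE core was found in 57.1% of the 28 windows of these 14 genes. Csrnp1 holds it in 4 of 4 windows, Egr2 in 3 of 5 and Bdnf in 1 of 7. The share was 26.6% in the 214 windows of all genes called higher, 14.7% in the 75 windows of genes called lower and 26.3% in the 10670 windows of tested genes. A CArG box was found in 5.14% of the windows of genes called higher and 1.25% of those of tested genes, in 6 and 123 genes (4 of the former 11 windows are of Egr2), and in 0 of the 75 windows of genes called lower. A full CRE (TGACGTCA, the same on both strands, and holding a CRE core on each) was found in 1.87% of the windows of genes called higher and 2.64% of those of tested genes. These shares describe the letters of these windows, and windows of 1 gene may overlap.

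Egr2, a zinc-finger transcription factor, had log2 intensities of 8.66, 8.44, 8.24, 8.93 and 8.49 after saline, and a lowest, median and highest value of 9.78, 10.53 and 11.05 after cocaine. All 6 cocaine arrays lay well above the saline arrays. The difference was 1.95 ± 0.26 (SE), a 3.85-fold higher level (adjusted p = 0.000811, limma), and it was 2.16 without arrays 9, 16 and 19. Fos, which pairs with Jun proteins to form AP-1, stood at 9.02, 9.54, 9.59, 9.95 and 9.80 after saline and at 10.57, 11.09 and 11.29 (lowest, median, highest) after cocaine. The groups were again fully apart, with arrays 9, 16 and 19 the highest. Its difference was 1.44 ± 0.23 (SE, adjusted p = 0.00234), and 1.17 without these arrays. Npas4, a factor that is induced by calcium entry in neurons, had values of 7.12, 6.06, 7.13, 7.43 and 7.02 after saline and 7.53, 8.08 and 8.49 after cocaine. It was detected on 4 of 5 saline arrays and on all 6 cocaine arrays, and no values overlapped. The difference was 1.10 ± 0.19 (SE, adjusted p = 0.00468), and 1.07 without the 3 arrays.

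Egr1, abundant in the resting striatum, moved less. It had 13.91, 14.20, 13.97, 14.24 and 14.23 after saline and 14.51, 14.56 and 14.64 after cocaine, a narrow but complete separation at 0.46 ± 0.08 (SE, adjusted p = 0.00471), with 0.47 without the 3 arrays. Egr4 differed by 0.69 ± 0.14 (SE, adjusted p = 0.014) and by 0.78 without them, and did not pass without saline array 14 (adjusted p up to 0.0587). Fosl2, another AP-1 subunit, differed by 0.71 ± 0.14 (SE, adjusted p = 0.0103) and by 0.79 without them, with all cocaine arrays above all saline arrays. These 3 genes had about the same difference in both fits. Nr4a2, an orphan nuclear receptor, behaved otherwise: its difference of 1.18 ± 0.30 (SE, adjusted p = 0.0423) was 0.55 without the 3 arrays and 0.17 with the excitatory score in the model, and it did not pass without saline array 1, 14, 18 or 22 or cocaine array 9, 16 or 19 (adjusted p up to 0.14). Csrnp1 (difference 0.54, 0.46 without the 3 arrays) did not pass without saline array 14, 18 or 22 or cocaine array 9, 16 or 19 (adjusted p up to 0.104). Cebpb, a bZIP factor (difference 0.39, 0.30 without the 3 arrays), did not pass without saline array 14, 18 or 22 or cocaine array 3, 9, 16 or 19 (adjusted p up to 0.12). Bhlhe40, a repressor that also belongs to the circadian list, differed by 0.50 ± 0.12 (SE, adjusted p = 0.0287), or 0.38 without the 3 arrays. Bhlhe40 lost its call without saline array 1, 14 or 22 or cocaine array 9, 16 or 19 (adjusted p up to 0.104). Junb had a difference of 0.74 ± 0.21 (SE, adjusted p = 0.0662) and Fosb one of 0.44 ± 0.19 (SE, adjusted p = 0.253), and neither passed. They differed by 0.91 and 0.60 without the 3 arrays. Fosl2, Egr4, Nr4a2, Csrnp1, Cebpb, Junb and Fosb are named here after their values were seen.

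**Figure D1:**
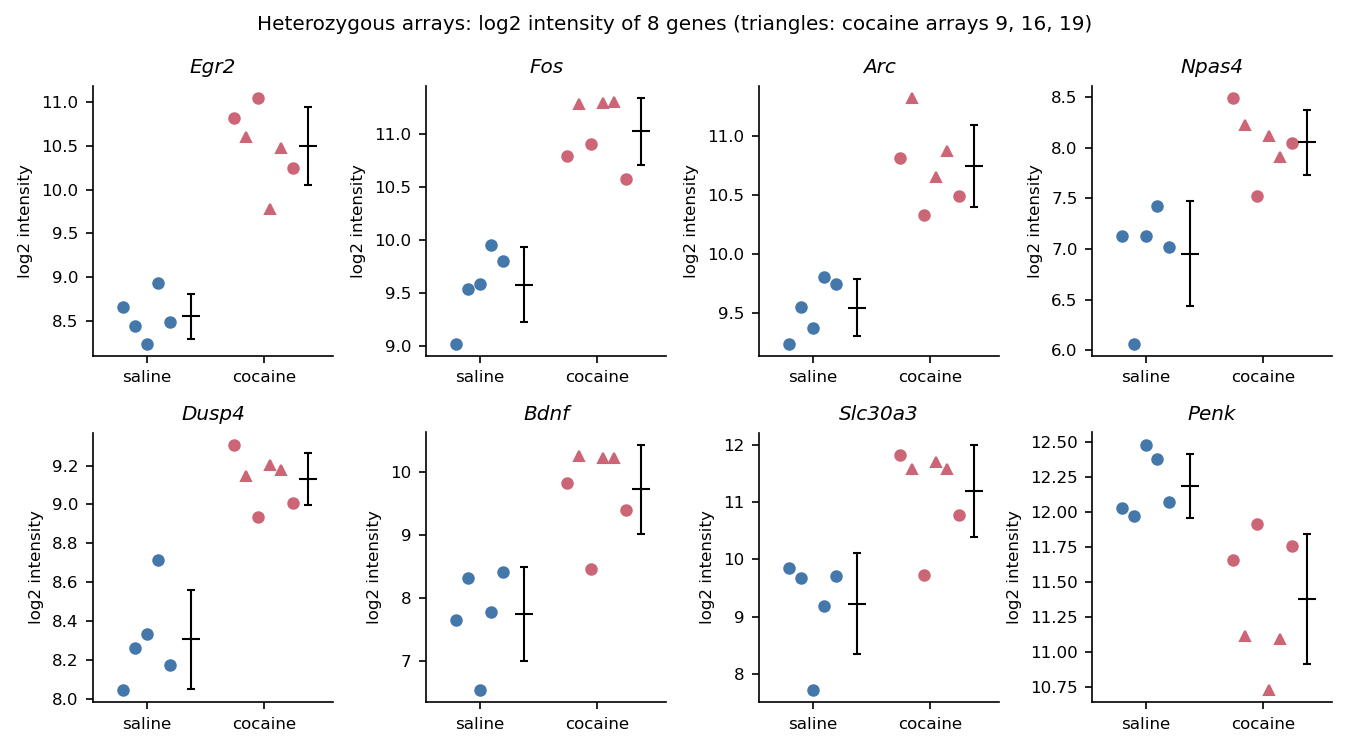
Log2 intensity (vertical axes, each with its own range) of 8 genes on the 5 saline and 6 cocaine arrays of heterozygotes; each point is 1 array, triangles mark cocaine arrays 9, 16 and 19, and the bar to the right of each group is its mean with the SD. For Egr2, Fos, Arc, Npas4, Dusp4 and Bdnf the 2 groups do not overlap, while for Slc30a3 cocaine array 11 lies among the saline arrays and for Penk the triangles are the lowest points.

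Among effectors of neuronal activity, several of which act at synapses or outside the cell, 7 of 24 measured genes rose and 0 fell, with a median difference of 0.34, and of 0.31 without arrays 9, 16 and 19. In that fit 0 passed in limma. With the excitatory score in the model the median was 0.17, also with 0 passing. Arc, which regulates the trafficking of AMPA receptors, had 9.24, 9.56, 9.37, 9.81 and 9.75 after saline and 10.33, 10.73 and 11.32 after cocaine. Every cocaine array was higher than every saline array. The difference was 1.20 ± 0.17 (SE), 2.3-fold (adjusted p = 0.00123), and 1.00 without arrays 9, 16 and 19. Midn, which encodes midnolin, a carrier of nuclear proteins to the proteasome, differed by 0.56 ± 0.10 (SE, adjusted p = 0.00448) and by 0.59 without them. Ccn1, a secreted matrix protein, was detected on 0 of 5 saline and 5 of 6 cocaine arrays and lay at least 1.23-fold higher on the latter (adjusted p = 0.0076). Arc, Midn and Ccn1 passed in each of the 11 fits that left out 1 array.

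Bdnf, a growth factor that cortical neurons release onto striatal neurons, had one of the largest increases. Its values were 7.65, 8.31, 6.53, 7.77 and 8.40 after saline and 8.46, 10.02 and 10.25 after cocaine, with arrays 9, 16 and 19 the 3 highest and saline array 14 the lowest. The difference was 1.99 ± 0.34 (SE), 3.98-fold (adjusted p = 0.00432). It was 1.49 without the 3 arrays and 0.78 with the excitatory score in the model. Nrn1, a membrane-anchored neurite growth protein that is also in the excitatory list, followed the same arrays: it had 10.50, 10.56, 8.65, 10.18 and 10.69 after saline and 10.50, 12.21 and 12.32 after cocaine. A single cocaine array, number 11, fell within the saline range. The difference was 1.75 ± 0.34 (SE, adjusted p = 0.00803), 1.31 without the 3 arrays and 0.59 with the excitatory score. Gadd45b, a stress-inducible gene (difference 0.52, 0.41 without the 3 arrays), and Nptx2, a secreted protein that clusters AMPA receptors (difference 0.52, 0.43 without them), are named after their values were seen. Gadd45b did not pass without saline array 6, 14, 18 or 22 or cocaine array 3, 9, 16 or 19 (adjusted p up to 0.129). Nptx2 did not pass without saline array 1, 6, 14, 18 or 22 or cocaine array 3, 9, 16 or 19 (adjusted p up to 0.147).

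Genes of MAP kinase feedback, most of which encode phosphatases that switch the kinases off, had 3 of 12 members higher and 0 lower, with a median of 0.26, and of 0.19 without arrays 9, 16 and 19. In that fit 0 passed in limma. With the excitatory score in the model the median was 0.24, also with 0 passing. Dusp4 had 8.04, 8.26, 8.33, 8.72 and 8.17 after saline and 8.94, 9.16 and 9.31 after cocaine. The groups did not overlap, and arrays 9, 16 and 19 lay within the range of the other cocaine arrays. The difference was 0.83 ± 0.12 (SE, adjusted p = 0.00123), and 0.78 without them. Dusp6, which acts on ERK in the cytoplasm, differed by 0.64 ± 0.11 (SE, adjusted p = 0.00526), and Dusp1, a nuclear phosphatase, by 0.64 ± 0.12 (SE, adjusted p = 0.00579). Without the 3 arrays they differed by 0.66 and 0.62. All 3 passed in each of the 11 fits that left out 1 array.

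**Figure D2:**
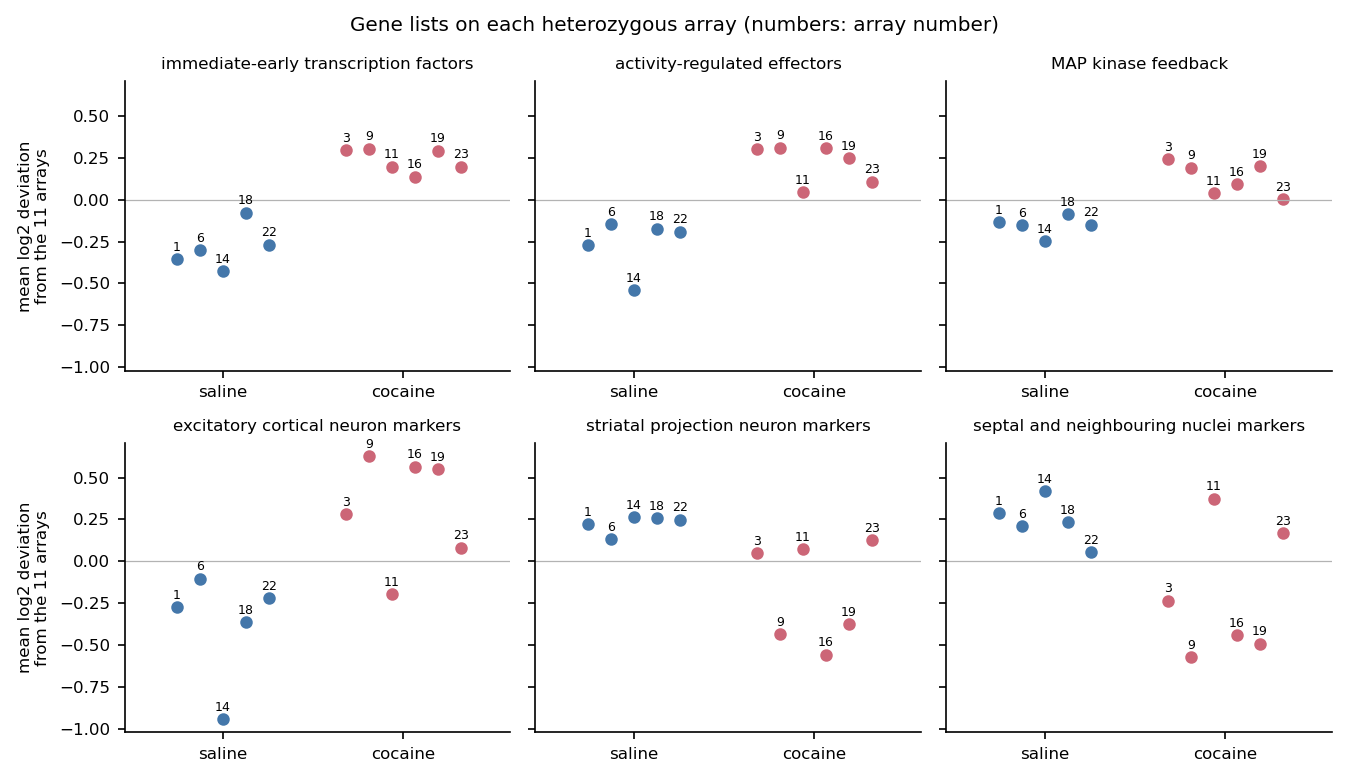
Mean log2 deviation of the measured members of 6 gene lists from their mean over the 11 heterozygous arrays (vertical axis), for each saline and cocaine array, with the array number above its point. The activity lists in the top row separate saline from cocaine arrays without overlap. The striatal list in the bottom row does so too, narrowly (highest cocaine value 0.126, lowest saline value 0.133). In the bottom row cocaine arrays 9, 16 and 19 have the highest excitatory and the lowest striatal values, and saline array 14 has the lowest excitatory value.

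The 12 largest increases named by rule belong to several lists or to none. Of these 12 genes, Adcyap1, Nmbr and Cck are on the neuropeptide list, of which 5 of 21 measured members rose and 1 fell. Adcyap1, the precursor of the neuropeptide PACAP, had 5.49, 6.33, 4.78, 5.71 and 6.87 after saline and 7.03, 8.44 and 9.20 after cocaine. It was detected on 2 of 5 saline arrays and on all 6 cocaine arrays, and no values overlapped. The difference was 2.30 ± 0.40 (SE, adjusted p = 0.00468), 1.92 without arrays 9, 16 and 19 and 1.13 with the excitatory score. Tafa1, a secreted protein of neurons, was detected on 0 of 5 saline and 6 of 6 cocaine arrays and lay at least 2.99-fold higher on the latter (adjusted p = 0.00057, which rests on saline values not above background). Its measured values were 5.66, 5.93, 5.15, 5.13 and 6.29 after saline and 7.13, 7.90 and 8.64 after cocaine. Nmbr, the receptor of neuromedin B, was detected on 4 saline arrays and differed by 2.11 ± 0.42 (SE, adjusted p = 0.0115), or 1.86 without the 3 arrays, and did not pass without saline array 14 (adjusted p up to 0.0533).

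Pdzrn3, a ubiquitin ligase of synapses and muscle, was one of the most uniform: it had 8.22, 8.14, 7.65, 8.17 and 8.69 after saline and 8.98, 9.91 and 10.47 after cocaine, with no overlap. The difference was 1.69 ± 0.25 (SE), 3.22-fold (adjusted p = 0.00123), and 1.52 without the 3 arrays. Arhgap15, an inhibitor of Rac, differed by 1.84 ± 0.32 (SE, adjusted p = 0.00471), and Gucy2g, a receptor guanylyl cyclase, by 1.74 ± 0.31 (SE, adjusted p = 0.0056). Both were smaller without the 3 arrays, at 1.24 and 1.23, and they were detected on 4 and 3 of the saline arrays. Ly6g6e, a member of the Ly6 family, was detected on 3 saline arrays and differed by 2.03 ± 0.38 (SE, adjusted p = 0.00741), or 1.62 without the 3 arrays.

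Of 22 measured markers of excitatory cortical neurons, 9 rose and 0 fell, with a median difference of 0.51. In the 11 heterozygous arrays alone 1 of them passed. Slc30a3, the transporter that loads zinc into glutamate vesicles, had 9.85, 9.67, 7.72, 9.18 and 9.72 after saline and 9.72, 11.57 and 11.81 after cocaine. Cocaine array 11 lay among the saline arrays, and saline array 14 was far below the rest. The difference was 1.97 ± 0.36 (SE), 3.91-fold (adjusted p = 0.00578), 1.54 without arrays 9, 16 and 19 and 0.91 with the excitatory score. Slc17a7, the vesicular glutamate transporter of cortical neurons, had 10.37, 11.11, 8.50, 10.13 and 10.58 after saline and 10.81, 11.81 and 12.31 after cocaine. It was high and low on the same arrays, with a difference of 1.57 ± 0.34 (SE, adjusted p = 0.0174) and of 1.19 without the 3 arrays. Slc17a7 lost its call without saline array 14 or cocaine array 9 or 16 (adjusted p up to 0.0591). Mef2c, a transcription factor that Foxp2 is known to repress in the striatum, differed by 0.69 ± 0.13 (SE, adjusted p = 0.00712) and by 0.62 without the 3 arrays, with all cocaine arrays above all saline arrays. Its other tested probes differed by 0.99, 0.59 and 0.54 (adjusted p = 0.0329, 0.0898 and 0.311, limma).

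The factors of excitatory neuron identity followed. Neurod1 was undetected on all saline arrays and detected on 4 of 6 cocaine arrays, at least 1.42-fold higher (adjusted p = 0.0133). It did not pass without saline array 14 (adjusted p up to 0.0572). Neurod2 differed by 1.60 ± 0.34 (SE, adjusted p = 0.0145), or 1.06 without the 3 arrays, and did not pass without saline array 14 or 18 or cocaine array 9 (adjusted p up to 0.0608). Tbr1 differed by 1.43 ± 0.38 (SE, adjusted p = 0.0469), or 0.82 without the 3 arrays, and did not pass without saline array 1, 14, 18 or 22 or cocaine array 3, 9, 16 or 19 (adjusted p up to 0.152). Neurod6 had a difference of 1.02 ± 0.40 (SE, adjusted p = 0.205), which did not pass, and of 0.28 without the 3 arrays. The list as a whole had a median of 0.27 without the 3 arrays and 0.10 with the excitatory score in the model, whose 4 genes belong to it. Its mean per array was between -0.20 and 0.63 after cocaine and between -0.94 and -0.10 after saline, which overlap. The markers' part in the differences of Bdnf, Nrn1, Adcyap1, Cck and the other genes that are high on the same arrays was not tested beyond these fits.

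Interneuron markers split: 3 of 16 rose, 2 fell, and the median was -0.04, or -0.01 without arrays 9, 16 and 19. Cck, a neuropeptide of interneurons and cortical afferents, had 10.32, 10.84, 9.17, 9.92 and 10.77 after saline and 11.25, 12.09 and 12.46 after cocaine. All cocaine arrays were above all saline arrays, with array 16 the highest. Its difference was 1.73 ± 0.31 (SE), 3.31-fold (adjusted p = 0.00562), 1.31 without arrays 9, 16 and 19 and 0.55 with the excitatory score. Vip, another interneuron peptide, differed by 1.47 ± 0.32 (SE, adjusted p = 0.0172), or 1.03 and 0.34 in these fits, and did not pass without saline array 14 or 18 or cocaine array 9 or 16 (adjusted p up to 0.0755). Crhbp, which binds corticotropin-releasing hormone, differed by 0.88 ± 0.18 (SE, adjusted p = 0.0123), or 0.60 without the 3 arrays, and did not pass without saline array 14 (adjusted p up to 0.053). The members that fell are both of cholinergic interneurons. Slc5a7, the choline transporter, had 9.37, 9.81, 9.87, 9.54 and 9.70 after saline and 8.11, 8.63 and 9.57 after cocaine. Arrays 11 and 23 were near the saline values. The difference was -0.91 ± 0.22 (SE, adjusted p = 0.0297), and -0.41 without the 3 arrays. Slc5a7 lost its call without saline array 6, 14, 18 or 22 or cocaine array 9, 16 or 19 (adjusted p up to 0.0993). Gbx2, a homeobox factor of developing cholinergic neurons, differed by -1.02 ± 0.24 (SE, adjusted p = 0.0266), or -0.61 without the 3 arrays. Gbx2 lost its call without saline array 14, 18 or 22 or cocaine array 9, 16 or 19 (adjusted p up to 0.0799). Of 21 neuropeptides and opioid receptors 5 rose and 1, Penk, fell, with a median of 0.15.

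The largest decreases were smaller than the largest increases. Dlk1, an imprinted gene that encodes a Notch-like membrane protein, had 12.12, 12.31, 12.59, 12.30 and 12.37 after saline and 10.40, 11.17 and 12.40 after cocaine. Arrays 9, 16 and 19 were the lowest, and array 11 lay within the saline range. The difference was -1.06 ± 0.27 (SE, adjusted p = 0.0414), and -0.47 without the 3 arrays. Dlk1 lost its call without saline array 1, 6, 14, 18 or 22 or cocaine array 9, 16 or 19 (adjusted p up to 0.125). Peg10, an imprinted gene derived from a retrotransposon, was detected on 4 of 5 saline and 0 of 6 cocaine arrays and was at least 1.05-fold lower after cocaine (adjusted p = 0.0234). Peg10 lost its call without saline array 6, 14 or 18 or cocaine array 9, 16 or 19 (adjusted p up to 0.0805). Both were listed as markers of the septum and neighbouring nuclei, of which 2 of 9 fell and 0 rose, with a median of -0.44 and, without the 3 arrays, of -0.16.

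Among the decreases named by rule, Musk and Drd1 were those that passed in each of the 11 fits that left out 1 array. These fits kept the wild-type arrays in the spread, and in the 11 heterozygous arrays alone Drd1 did not pass. Musk is known as the receptor kinase of the neuromuscular synapse. Its values were 7.70, 7.22, 7.45, 7.51 and 7.35 after saline and 6.18, 6.52 and 7.11 after cocaine, without overlap. It was detected on 5 saline and 4 cocaine arrays. The difference was -0.86 ± 0.15 (SE), 1.82-fold lower (adjusted p = 0.00448), and -0.62 without the 3 arrays. Zbtb7c, a zinc-finger factor, differed by -0.91 ± 0.19 (SE, adjusted p = 0.014), or -0.49 without the 3 arrays, and did not pass without saline array 14 or 18 (adjusted p up to 0.0552). C1ql2, a secreted synaptic organiser, differed by -0.86 ± 0.23 (SE, adjusted p = 0.0482), or -0.58 without them, with detection on 3 saline and 1 cocaine array. C1ql2 lost its call without saline array 6, 14, 18 or 22 or cocaine array 3, 9, 16 or 19 (adjusted p up to 0.134). Ecel1, a membrane peptidase, differed by -0.85 ± 0.23 (SE, adjusted p = 0.0478), or -0.40 without them. Ecel1 lost its call without saline array 1, 6, 14, 18 or 22 or cocaine array 3, 9, 16 or 19 (adjusted p up to 0.14). Gpr149, an orphan receptor, differed by -0.79 ± 0.21 (SE, adjusted p = 0.0461), or -0.39 without them. Its other tested probe differed by -0.15 (adjusted p = 0.862, limma). Gpr149 lost its call without saline array 6, 14, 18 or 22 or cocaine array 3, 9, 16 or 19 (adjusted p up to 0.141).

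Of 30 measured markers of striatal projection neurons 5 fell and 0 rose, and 28 of the 30 differences were below 0, with a median of -0.46. Without arrays 9, 16 and 19 the median was -0.15, and 0 members passed. Also 0 members passed in the 11 heterozygous arrays alone. Drd1, the D1 dopamine receptor, had 12.55, 12.67, 12.71, 12.85 and 12.79 after saline and 11.81, 12.12 and 12.45 after cocaine. The groups did not overlap, with arrays 9, 16 and 19 the lowest. The difference was -0.59 ± 0.10 (SE), 1.5-fold lower (adjusted p = 0.00448), and -0.38 without these arrays. With each gene counted by 1 probe, Drd1 was the 1 called gene of 8 markers of the D1 class, whose median was -0.44. The striatal marker Pdyn differed by -0.47 at its counted probe (adjusted p = 0.0699, limma). Its other tested probe was called, at -0.76 (adjusted p = 0.0332, limma).

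Of 6 markers of the D2 class 3 fell, with a median of -0.77. In the 11 heterozygous arrays alone 0 of the 6 passed. Drd2, the D2 receptor, had 10.23, 10.04, 9.96, 10.41 and 9.88 after saline and 8.90, 9.29 and 9.74 after cocaine, with a small gap between the groups. The difference was -0.79 ± 0.18 (SE, adjusted p = 0.0255), and -0.44 without the 3 arrays. Drd2 lost its call without saline array 1, 14 or 18 or cocaine array 9, 16 or 19 (adjusted p up to 0.0829). Penk, the enkephalin precursor, had 12.03, 11.97, 12.48, 12.38 and 12.07 after saline and 10.73, 11.39 and 11.91 after cocaine, again with the 3 arrays lowest and a gap of under 0.1 between the groups. The difference was -0.81 ± 0.18 (SE, adjusted p = 0.0219), -0.41 without the 3 arrays and -0.05 with the striatal score in the model. Penk is 1 of the 8 measured genes of that score, so the value with the score is drawn toward 0 by construction. Penk lost its call without saline array 14 or 18 or cocaine array 9, 16 or 19 (adjusted p up to 0.0859). Gpr6, a constitutively active receptor of D2 neurons, differed by -0.70 ± 0.17 (SE, adjusted p = 0.0328), or -0.35 without the 3 arrays. Gpr6 lost its call without saline array 1, 14, 18 or 22 or cocaine array 9, 16 or 19 (adjusted p up to 0.106). Without arrays 9, 16 and 19 the median of the list was -0.38. Whether the D2 class fell more than the D1 class was not tested.

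Among 18 genes of dopamine receptors and cAMP signalling, 3 fell and 0 rose, with a median of -0.32 and, without the 3 arrays, of -0.10. Beside both receptors this was Ddc, which makes dopamine from L-DOPA, at -0.56 ± 0.15 (SE, adjusted p = 0.049) and -0.47 without the 3 arrays. In the 11 heterozygous arrays alone 0 of the 18 genes passed. Ddc lost its call without saline array 6, 14, 18 or 22 or cocaine array 3, 9, 16 or 19 (adjusted p up to 0.152). Rasd2, a small GTPase of the striatum known as Rhes, was the 1 called member of 17 regulators of G proteins, at -0.48 ± 0.12 (SE, adjusted p = 0.0408), or -0.27 without the 3 arrays. Rasd2 lost its call without saline array 1, 14, 18 or 22 or cocaine array 9, 16 or 19 (adjusted p up to 0.122). Ppp1r1b, the protein kinase A target DARPP-32, had a difference of -0.46 ± 0.13 (SE) that did not pass (adjusted p = 0.0577), and Tac1, the substance P precursor, one of -0.42 ± 0.11 (SE, adjusted p = 0.0503). Ppp1r1b passed without saline array 6 or cocaine array 11 or 23 (adjusted p down to 0.0212), and Tac1 passed without saline array 6 or cocaine array 3, 11 or 23 (adjusted p down to 0.0179). Without the 3 arrays they differed by -0.20 and -0.20.

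**Figure D3:**
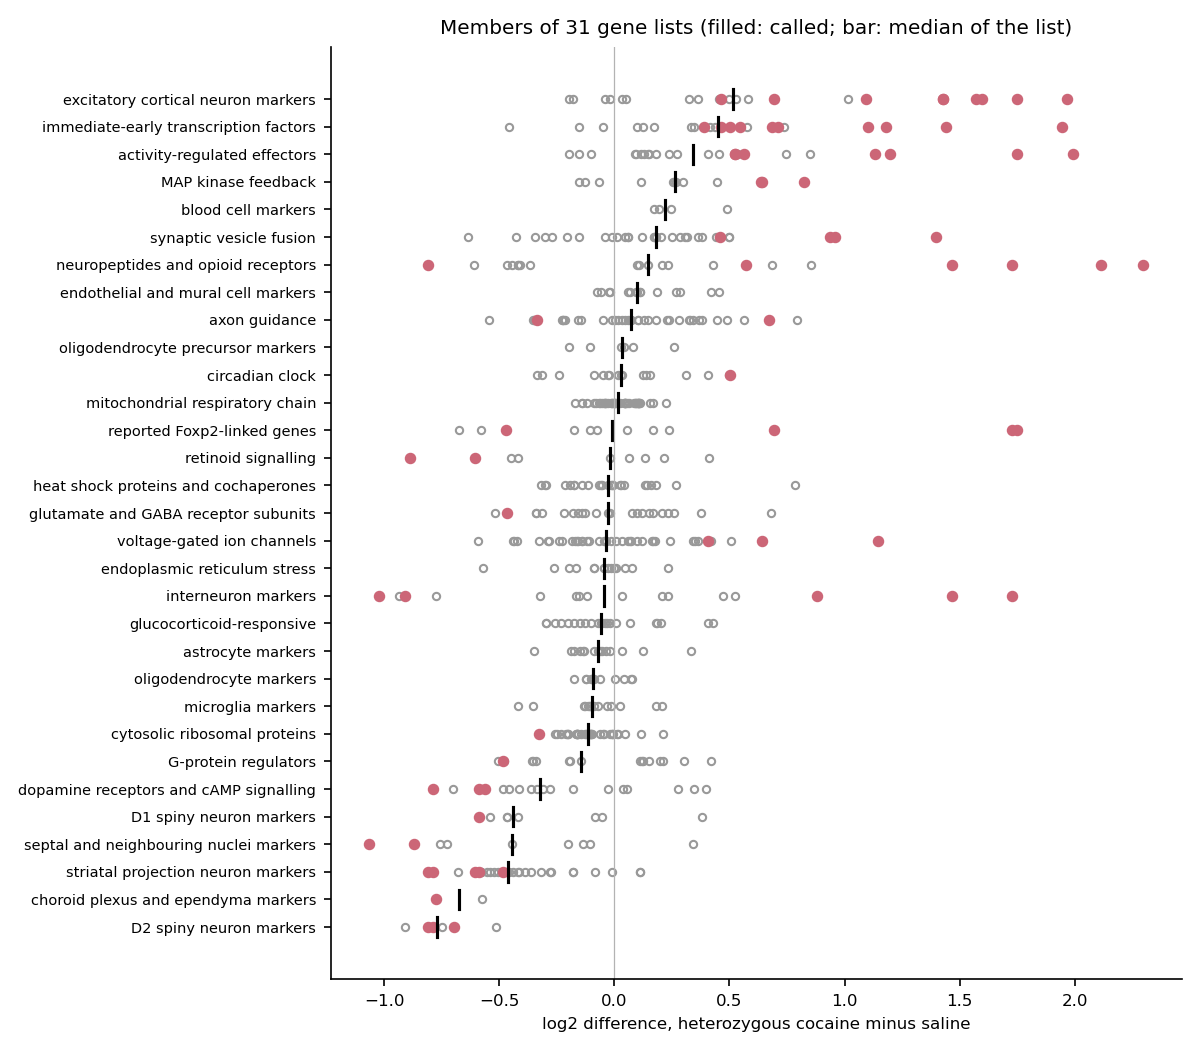
Log2 difference (cocaine minus saline, horizontal axis) of every measured member of the 31 gene lists in heterozygotes, sorted by the median of the list (bar); filled points are called genes and open points did not pass. The excitatory list (median 0.51) and the 3 activity lists (0.45, 0.34 and 0.26) are at the top, and the D2 (-0.77) and striatal (-0.46) lists near the bottom. A gene in several lists is drawn in each.

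Synaptic vesicle fusion had 4 of 33 members higher and 0 lower, with a median of 0.18. Stx1a, a SNARE protein of the presynaptic membrane, had 11.41, 11.22, 10.69, 11.02 and 11.35 after saline and 11.50, 12.15 and 12.42 after cocaine. All cocaine arrays were higher. The difference was 0.94 ± 0.16 (SE, adjusted p = 0.00432), and 0.67 without arrays 9, 16 and 19. Syt17 and Syt13, 2 synaptotagmins that do not act as fast calcium sensors, differed by 1.40 ± 0.27 (SE, adjusted p = 0.00803) and 0.96 ± 0.20 (SE, adjusted p = 0.0123), or by 1.15 and 0.69 without the 3 arrays. Syt17 was detected on 2 of 5 saline arrays, and Syt13 did not pass without saline array 14 (adjusted p up to 0.0567). Rims1, a scaffold of the active zone, differed by 0.46 ± 0.12 (SE, adjusted p = 0.0453), or 0.25 without the 3 arrays. Rims1 lost its call without saline array 1, 14, 18 or 22 or cocaine array 3, 9, 16 or 19 (adjusted p up to 0.137).

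Of 43 voltage-gated and potassium channel subunits 3 rose and 0 fell, with a median of -0.04. Cacna2d1, a subunit that brings calcium channels to the membrane, had 10.47, 10.48, 10.24, 10.62 and 10.54 after saline and 10.85, 11.13 and 11.39 after cocaine, without overlap. The difference was 0.64 ± 0.11 (SE, adjusted p = 0.00468), and 0.62 without the 3 arrays. Kcnj3, a channel opened by G proteins, differed by 1.15 ± 0.26 (SE, adjusted p = 0.0217), or 0.74 without them. Kcnj3 lost its call without saline array 14 or 18 or cocaine array 9, 16 or 19 (adjusted p up to 0.0896). Kcnf1, a modulatory potassium channel subunit, differed by 0.41 ± 0.10 (SE, adjusted p = 0.0324), or 0.32 without them. Kcnf1 lost its call without saline array 1, 6, 14 or 18 or cocaine array 3, 9, 16 or 19 (adjusted p up to 0.0974). Of 23 glutamate and GABA receptor subunits 1 was called, Grm4, a metabotropic glutamate receptor, at -0.46 ± 0.12 (SE, adjusted p = 0.0376) and -0.24 without the 3 arrays. The other tested probe of Grm4 differed by -0.27 (adjusted p = 0.632, limma). Grm4 lost its call without saline array 14, 18 or 22 or cocaine array 9, 16 or 19 (adjusted p up to 0.125). Of 39 axon guidance genes 1 rose and 1 fell, with a median of 0.07. Robo2, a receptor of Slit proteins, differed by 0.67 ± 0.14 (SE, adjusted p = 0.014), or 0.51 without the 3 arrays. Its other tested probes differed by 0.31 and 0.39 (adjusted p = 0.309 and 0.289, limma). Slit3, a ligand of that family, differed by -0.34 ± 0.08 (SE, adjusted p = 0.0278), or -0.36 without them. Slit3 lost its call without saline array 6, 14, 18 or 22 or cocaine array 9 or 16 (adjusted p up to 0.0859).

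Genes that Foxp2 has been reported to bind or regulate had 3 of 12 members higher (Cck, Mef2c and Nrn1) and 1 lower, with a median of -0.01. The lower member was Cntnap2, a neurexin-like adhesion protein, at -0.47 ± 0.12 (SE, adjusted p = 0.0455) and -0.24 without the 3 arrays. The other tested probe of Cntnap2 differed by -0.03 (adjusted p = 0.919, limma). Cntnap2 lost its call without saline array 6, 14, 18 or 22 or cocaine array 9, 16 or 19 (adjusted p up to 0.134). Foxp2 itself had 8.52, 8.48, 8.82, 8.82 and 8.42 after saline and 7.02, 7.85 and 9.22 after cocaine. The cocaine arrays spread widely, with 9, 16 and 19 lowest and array 23 above all saline arrays. The difference of -0.67 ± 0.27 (SE) did not pass (adjusted p = 0.216). It was -0.02 without arrays 9, 16 and 19, and it was -0.93 and passed (adjusted p = 0.0217) without array 23. Its other 2 probes had differences of -0.57 and -0.75 (adjusted p = 0.346 and 0.245). Foxp1, its partner in spiny neurons, had a difference of -0.58 ± 0.20 (SE, adjusted p = 0.142) and Foxp4 one of 0.17 ± 0.10 (SE, adjusted p = 0.451), and without the 3 arrays these were -0.17 and 0.09.

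Retinoid signalling, which is high in the striatum, had 2 of 9 members lower and 0 higher, with a median of -0.02. Stra6, the receptor that takes up retinol, differed by -0.89 ± 0.24 (SE, adjusted p = 0.0484), or -0.70 without the 3 arrays. Stra6 lost its call without saline array 1, 6, 14, 18 or 22 or cocaine array 3, 9, 16 or 19 (adjusted p up to 0.136). Rarb, a nuclear receptor of retinoic acid that is also a striatal marker, differed by -0.61 ± 0.16 (SE, adjusted p = 0.0499), or -0.24 without the 3 arrays, and by 0.10 with the striatal score in the model. Rarb lost its call without saline array 1, 6, 14, 18 or 22 or cocaine array 3, 9, 16 or 19 (adjusted p up to 0.141). Of 36 cytosolic ribosomal proteins Rps19 was called, at -0.33 ± 0.09 (SE, adjusted p = 0.0499), with 31 of the 36 differences below 0 and a median of -0.12. Without the 3 arrays Rps19 differed by -0.22. Rps19 lost its call without saline array 1, 6, 14, 18 or 22 or cocaine array 9, 16 or 19 (adjusted p up to 0.151). Of the 14 markers of choroid plexus and ependyma on the list 2 were measured, Clic6 and Kl, with a median of -0.68, or -0.24 without the 3 arrays. Their mean deviation lay between 0.16 and 0.46 after saline and between -0.96 and 0.30 after cocaine, lowest on arrays 9, 16 and 19, and its part in other results was not tested. Kl differed by -0.58 ± 0.18 (SE, adjusted p = 0.089), which did not pass, and passed without cocaine array 23 (adjusted p down to 0.0358). Clic6, a chloride channel protein of the choroid plexus, differed by -0.78 ± 0.21 (SE, adjusted p = 0.0499), or -0.27 without the 3 arrays, and did not pass without saline array 1, 6, 14, 18 or 22 or cocaine array 9, 16 or 19 (adjusted p up to 0.147).

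Several lists had no called member. Of 22 glucocorticoid-responsive genes, 25 heat shock genes, 15 genes of endoplasmic reticulum stress and 45 of the mitochondrial respiratory chain 0 passed in limma (3, 1, 3 and 1 at an unadjusted p under 0.05), with medians of -0.06, -0.03, -0.04 and 0.02. The member with the smallest p of each was Per1 (difference 0.41, adjusted p = 0.126), a clock gene that glucocorticoids induce, Hspb8 (-0.29, adjusted p = 0.309), Trib3 (-0.57, adjusted p = 0.0721) and Atp5d (0.23, adjusted p = 0.296). Bhlhe40 was the 1 called member of 17 circadian genes, with a median of 0.03. Of the markers of astrocytes (15), oligodendrocytes (12), their precursors (6), microglia (14), endothelial and mural cells (15) and blood cells (4) 0 passed in limma (0, 0, 0, 2, 3 and 0 at an unadjusted p under 0.05), with medians of -0.07, -0.09, 0.03, -0.09, 0.10 and 0.22. The smallest p in these lists were those of Aldoc (-0.17, adjusted p = 0.331), Opalin (-0.17, adjusted p = 0.499), Neu4 (0.26, adjusted p = 0.431), Trem2 (-0.42, adjusted p = 0.0973), Rgs5 (0.42, adjusted p = 0.0973) and Alas2 (0.49, adjusted p = 0.658). Neu4 and Alas2 were undetected on all saline arrays. Trib3 passed without cocaine array 11 (adjusted p down to 0.0401), and Trem2 passed without cocaine array 3 (adjusted p down to 0.0267).

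Wild-type littermates given the same injections had 11 called genes (0.109%), with 870 (8.58%) at an unadjusted p under 0.05, and 9 of the 11 were also called in heterozygotes. These were Egr2, Fos, Egr1, Egr4, Fosl2, Arc, Midn, Dusp1 and Dusp4. For the core of this group the sizes were close: Egr2 differed by 1.94 ± 0.25 in wild type, Fos by 1.44 ± 0.22 and Arc by 1.15 ± 0.16. The 95% interval of the heterozygous minus the wild-type difference was -0.74 to 0.76 for Egr2, -0.65 to 0.66 for Fos and -0.44 to 0.54 for Arc. The wild-type calls that heterozygotes lacked were Fosb, at 0.93 ± 0.18 in wild type and 0.44 ± 0.19 (SE) here (interval -1.03 to 0.05), and Frmd6, at 0.55 ± 0.10 and 0.37 ± 0.11 (SE) (-0.48 to 0.13); in both genotypes all 4 differences were above 0.

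Of the 272 genes called in heterozygotes, 254 had a difference of the same sign in wild type and 85 one of at least 0.5 times the size. Not a single gene passed for the interaction of genotype and cocaine in limma (0 of 10138, 0%), with 488 (4.81%) at an unadjusted p under 0.05 and a smallest adjusted p of 0.927. The genes with the smallest interaction p were Slc17a8, Tafa1, Smyd5, Peg10 and Atxn2l. Slc17a8, the glutamate transporter of cholinergic neurons, had 8.62, 8.90, 9.04, 9.04 and 9.07 after saline and 7.97, 8.23 and 8.76 after cocaine. Array 23 alone of the cocaine arrays reached the saline range. It differed by -0.61 ± 0.13 (SE, adjusted p = 0.0155) in heterozygotes and by 0.17 ± 0.12 in wild type (interval of the difference between genotypes -1.15 to -0.41), with -0.43 in heterozygotes without arrays 9, 16 and 19, and it did not pass without saline array 14 or 18 or cocaine array 9 (adjusted p up to 0.0602). Smyd5, a methyltransferase of ribosomal proteins, differed by -0.46 ± 0.10 (SE, adjusted p = 0.0217) here and by 0.12 ± 0.10 in wild type (-0.87 to -0.28). Its difference was -0.47 without arrays 9, 16 and 19, and it did not pass without saline array 14, 18 or 22 or cocaine array 9 or 19 (adjusted p up to 0.0619). Atxn2l, an RNA-binding protein, differed by 0.20 ± 0.12 (SE, adjusted p = 0.45) and by -0.41 ± 0.11 (0.27 to 0.94). Some of the largest increases in heterozygotes had a smaller wild-type difference of the same sign, such as Slc30a3 at 0.57 ± 0.34 (interval 0.38 to 2.42), Cck at 0.74 ± 0.30 (0.09 to 1.88) and Bdnf at 0.90 ± 0.32 (0.13 to 2.05). These genes were named for their difference in heterozygotes, which enters the interval. None of these differences between genotypes passed adjustment. The mean excitatory score was -0.69 after saline and 0.71 after cocaine in heterozygotes, and -0.35 and 0.22 in wild type, and its part in these differences was not tested.

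**Figure D4:**
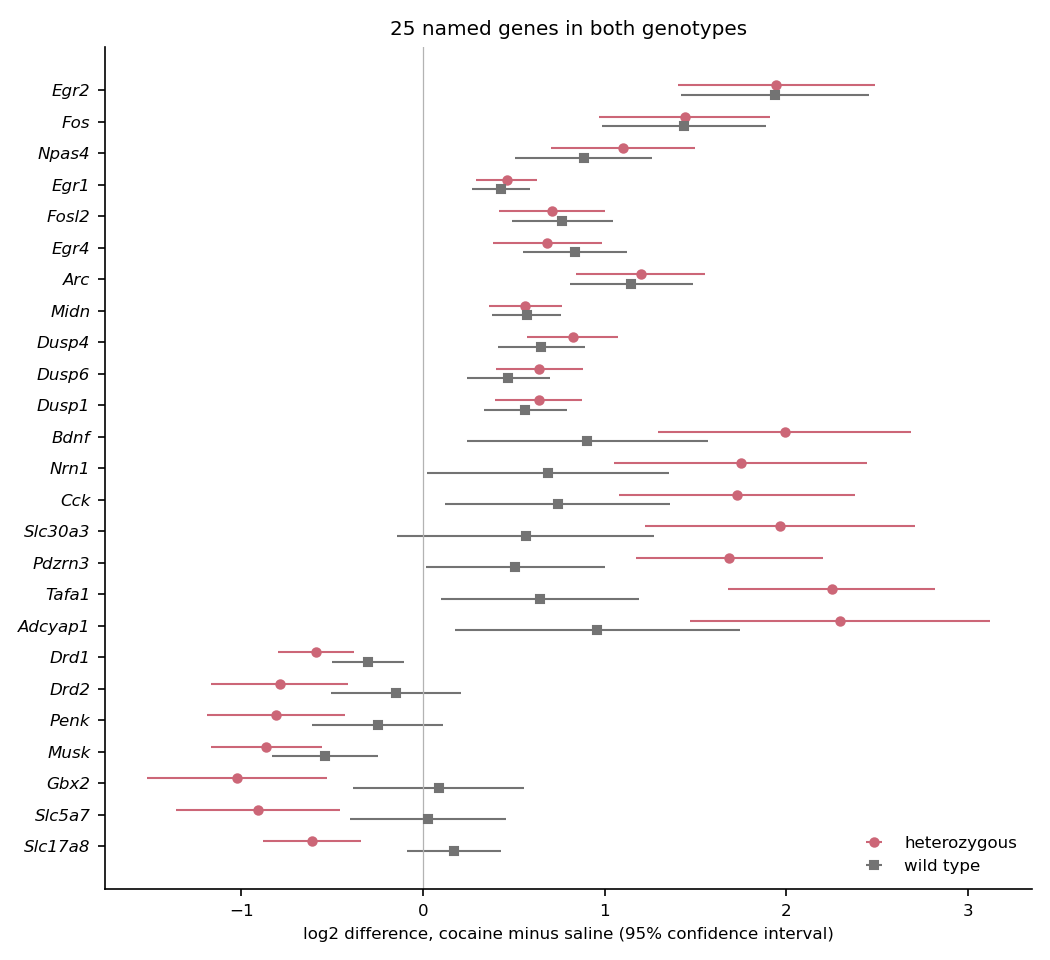
Log2 difference, cocaine minus saline (horizontal axis), of 25 genes in heterozygotes (circles) and wild type (squares), with 95% confidence intervals. From Egr2 to Dusp1 the 2 genotypes lie close together, while Bdnf to Adcyap1 and the decreases are farther from 0 in heterozygotes; no interaction passed adjustment. Tafa1 was undetected on all heterozygous saline arrays, so its difference depends on the background setting.

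Sex could be set beside the response in the authors' values, in which the labels give it for each animal (3 females and 2 males after saline, 3 and 3 after cocaine). Egr2 differed by 2.32 in males and 1.66 in females, Fos by 1.73 and 1.29, and Arc by 1.44 and 1.04. Other called activity genes had the opposite order, with Bdnf at 1.59 in males and 2.48 in females, Nrn1 at 1.13 and 2.27, and Nr4a2 at 0.71 and 1.67. So had the excitatory genes Slc17a7 and Slc30a3, with Slc17a7 at 0.91 in males and 2.06 in females and Slc30a3 at 1.29 and 2.53. The raw columns follow the same order of groups as the labelled animals. If they match in that order, saline array 14 and cocaine arrays 16 and 19 are of females and cocaine array 9 is of a male. The part of these arrays in the differences between the sexes was not tested. The interaction of sex and cocaine had 0 calls among 9274 genes in limma, with 328 (3.54%) at an unadjusted p under 0.05 and a smallest adjusted p of 0.998.

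**Figure D5:**
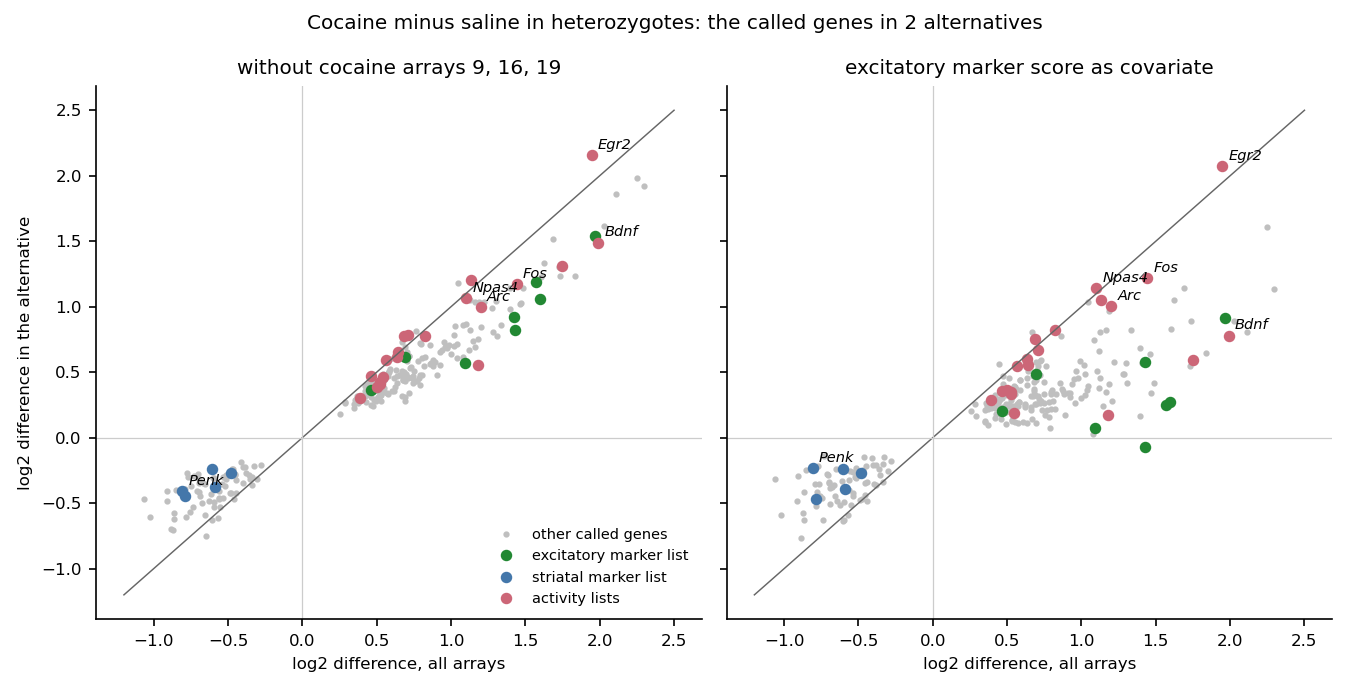
Log2 difference of the 272 called genes with all arrays (horizontal axes) against that without cocaine arrays 9, 16 and 19 (left) and with the excitatory score in the model (right); the line marks equal values. Egr2, Fos, Arc and Npas4 of the activity lists lie within 0.3 log2 units of the line in both panels, while Bdnf, Nrn1 and Nr4a2 of the same lists drop to 0.78, 0.59 and 0.17 in the right panel.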

How the data were processed

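Gene expression was measured in nucleus accumbens punches of 23 mice, 1 array each. The deposited table holds probe intensity, non-normalized per the file headers. Values below 0 (25.7% to 30.3% per array here) show that a background had already been taken off in the deposited table. The detection p-value beside each intensity is deposited per the file headers. The authors' processed values are deposited on a log2 scale, and their sorted values are the same on every array, as after quantile normalization. Software and build of these steps are not given in the sources used here.

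Background correction and quantile normalization of the intensities used the neqc function (limma 3.58.1, R 4.3.3, offset 16). The 18509 probes with a detection p under 0.01 on 5 or more arrays entered. Each gene was represented by its probe of highest mean. Of 101 genes named, 28 had several tested probes: 0 had a probe of the other sign and 12 had probes that differed in their call. These 12 were Cntnap2, Ddc, Dlk1, Gadd45b, Gpr149, Grm4, Mef2c, Pdyn, Rarb, Rims1, Robo2 and Smyd2. A model of 4 groups used all 23 arrays (residual degrees of freedom: 19) and two-sided moderated tests and Benjamini-Hochberg adjustment over all probes. Raw columns name genotype, injection and array number, not the animal, so sex and replicate number were fitted in the authors' values. Where all arrays of the lower group were undetected, the fold was bounded by the detection floor. The fit was tested on simulated data. The number of arrays limits the precision. P-values measure the spread between these samples, labelled as biological replicates.

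The members and the gene lists were chosen with earlier results of these data known. Named by rule were the 12 called genes that rose most, the 12 that fell most, at most 4 called members of each list by p (otherwise the member of smallest p), Foxp1, Foxp2, Foxp4 and the 5 of smallest interaction p. Sequences are RefSeq's. The alternatives were other normalization, offset, filter and moderation settings, the authors' values, single sexes, leaving out arrays, marker scores as covariates and blocks of 6 array numbers; those with the marker scores, the 3 arrays and the blocks were chosen after seeing the data.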

Additional observations from a re-analysis of the deposited data

Results flagged for a closer look

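Of 206 groups of values, 8 held 1 array whose gap to the nearest other, relative to the range, exceeded Dixon's 95% limit, which chance gives in about 1 in 20 groups. Saline array 14 was lowest for Nrn1 (8.65 log2 intensity) and Neurod6 (5.02 log2 intensity). Cocaine array 11 was lowest for Nrn1 (10.50) and Nrgn (11.12). Saline array 22 was highest for Stra6 (8.44). Saline array 1 was lowest for Slit3 (10.27). Saline array 22 was lowest for Alas2 (5.37). Saline array 18 was lowest for Ccnd1 (9.84). Neurod6 was detected on 3 of 5 saline and 4 of 6 cocaine arrays, and Alas2 was undetected on all saline arrays.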

How the results depend on the processing

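Of the planned settings, those that kept the count of called genes within 1.5 times of 272 were the authors' values (244), an offset of 50 (306), normalization by quantiles without background correction (227), probes detected on all arrays (285), sex as a covariate (300), array weights (356) and an intensity trend with robust moderation (390). In the 11 heterozygous arrays alone the count was 49, and wild-type arrays did not enter the spread. There the SE of the Foxp2 difference was 0.32, against 0.27 in the main fit, and the cause of the lower count was not tested. The count was 134 with no filter, which tests more probes, and 411 over every tested probe. It was 0 in males alone and 0 in females alone (limma, 526 and 1327 of 9274 genes at an unadjusted p under 0.05). Leaving out 1 array gave 67 to 521. Among settings chosen after seeing the data it was 1 without arrays 9, 16 and 19 (636 unadjusted), 0 without these and saline array 14 (521), 0 with the excitatory score (404) and 1 with the striatal score (355) as a covariate, and 215 with blocks of 6 array numbers; the cause was not tested. Among named called genes 2 changed sign, Rarb (0.10 with the striatal score) and Tbr1 (-0.073 with the excitatory score). Tbr1 is 1 of the 4 measured genes of the excitatory score, so its value there is not independent of that score. The interaction of genotype and cocaine had 0 calls in each of 28 settings, with 270 to 876 genes at an unadjusted p under 0.05. Foxp2 lay between -0.93 and -0.49 with 1 array left out, at -0.93 and past the threshold without cocaine array 23. The replicate numbers did not pair the animals: correlations of same-numbered deviations in the authors' values were 0.23, 0.11, 0.09, 0.02 and 0.08, and 4 of 10 animals correlated best with their own number. With the replicate block the count was 250. Dim probes near the detection floor limit what can be said of Tafa1, Ccn1, Neurod1, Peg10 and Arsj.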

Other observations

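Among the genes with the smallest p were some that belong to none of the lists above and are named after their values were seen. Samd9l, an interferon-inducible gene, differed between cocaine and saline by 1.16 ± 0.16 (SE, adjusted p = 0.000811, limma) and by 1.04 without arrays 9, 16 and 19, with 7.60, 7.88, 7.60, 7.59 and 8.22 after saline and 8.69, 8.98 and 9.13 (lowest, median, highest) after cocaine. Crtac1, a secreted matrix protein, differed by 1.18 ± 0.16 (SE, adjusted p = 0.000811), or 1.04 without the 3 arrays. Mapk11, the beta form of the p38 MAP kinase, differed by 1.08 ± 0.16 (SE, adjusted p = 0.00123), or 0.86. Smyd2, a protein lysine methyltransferase, differed by 0.72 ± 0.11 (SE, adjusted p = 0.00219), or 0.53, and Ccnd1, the cyclin of the G1 phase, by 0.72 ± 0.12 (SE, adjusted p = 0.00432), or 0.62. Arsj, an arylsulfatase, was undetected on all saline arrays and at least 1.55-fold higher on the cocaine arrays (adjusted p = 0.00137). Slc24a4, an exchanger of sodium, calcium and potassium, differed by -0.74 ± 0.13 (SE, adjusted p = 0.00468), or -0.53 without the 3 arrays. For each of these 7 genes every cocaine array lay on 1 side of every saline array, and each passed in all 11 fits that left out 1 array. In wild type the difference had the same sign in all 7, from -0.33 for Slc24a4 to 0.95 for Arsj.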
